A study of Mus musculus with 4 samples.

Results

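The enzymes of bile acid synthesis were compared between liver tumors of sorafenib-treated and carrier-treated mice. The set held 10 genes, Cyp7a1, Cyp7b1, Cyp39a1, Cyp27a1, Hsd3b7, Akr1d1, Cyp8b1, Amacr, Slc27a5 and Baat, taken by symbol from the 39179 genes listed for every library. Each symbol had a single row in the tables. All 10 passed the filter on low values, which left 13149 genes for testing.

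Both groups were tumors with the genotype Myc/NrasG12V in mice of the strain C57BL/6. Transposons encoding Myc and the mutant Nras were delivered to hepatocytes by hydrodynamic injection, a rapid tail vein injection that drives DNA into the liver, so each tumor grew within a host liver that was otherwise wild type. Mice of the sorafenib group were given sorafenib, an oral inhibitor of RAF kinases and of VEGF and PDGF receptors, every second day for 3 weeks, and mice of the carrier group were given the carrier on the same schedule. Each group had 2 libraries. The dose, the composition of the carrier, the age and sex of the mice, the promoters of the transposons and whether a library pooled several tumors are not stated in the labels.

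Poly(A) RNA was sequenced, and the values are CPM, a gene's reads scaled to 1000000 reads in its library. Depth was 4067427 and 5246530 reads in the sorafenib libraries and 5932939 and 5300806 reads in the carrier libraries. The libraries were those of liver: Alb, serum albumin, was at 79607 and 71696 CPM in sorafenib tumors and at 91592 and 107514 CPM in carrier tumors. Sorafenib replicate 2 stood apart from the other libraries. Its correlation across genes on log2(CPM + 1), where genes are not independent replicates, was 0.937 with sorafenib replicate 1, 0.878 with carrier replicate 1 and 0.89 with carrier replicate 2, while the carrier libraries correlated at 0.978. The driver Myc was at 28.8 and 15.8 CPM in sorafenib tumors and at 70.6 and 78.1 CPM in carrier tumors, and Nras was at 47.0 and 22.1 CPM, against 88.3 and 83.4 CPM. The gene values do not separate transposon transcripts from those of the mouse's own Myc and Nras. The oncofetal markers H19, Igf2, Afp, Gpc3, Prom1 and Igf2bp3 summed to 15210 and 88.2 CPM in sorafenib replicates 1 and 2. In carrier replicates 1 and 2 they summed to 38169 and 33093 CPM. How much tumor tissue each library held was not tested.

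Hepatocytes make bile acids from cholesterol. In the classical pathway CYP7A1 places a hydroxyl group on the sterol ring first, and in the alternative pathway CYP27A1 oxidises the side chain first and CYP7B1 then acts on the ring. HSD3B7 and AKR1D1 rearrange and reduce the ring, CYP8B1 adds the hydroxyl group that sets cholic acid apart, and peroxisomal enzymes shorten the side chain before BAAT joins the acid to taurine or glycine. Bile acids hold back their own synthesis through the nuclear receptor FXR in liver and through FGF15 from the ileum.

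Most of the enzymes had higher values in the sorafenib libraries. For 8 of 10 genes both sorafenib values exceeded both carrier values, for Cyp39a1 both were below, and for Cyp7a1 the groups overlapped. Over all genes tested, 17.5% lay above and 41.3% lay below in the same way. With a single sorafenib library, groups separate more easily. Without sorafenib replicate 1, 8 of 10 enzymes lay above and 2 below both carrier libraries, against 25.1% and 62.4% of all genes, and without sorafenib replicate 2, 9 lay above and 1 below, against 29% and 47.1%. The log2 fold change was positive for 9 of 10 enzymes and for 32.2% of all genes on CPM. With TMM scaling factors, which correct for composition, it was positive for the same 9 enzymes and for 47.7% of all genes. The 10 genes together took 2137 and 2403 CPM in sorafenib tumors, against 1049 and 993 CPM in carrier tumors, which was 2.09 and 2.35 times the carrier mean. Without Cyp27a1 and Slc27a5, the 2 genes with the highest CPM, the sum of the other 8 was 2.01 and 1.86 times the carrier mean. No single enzyme passed the test: limma on log2(CPM + 1) called 0 of 10 at an adjusted p below 0.05, and 0% of the 13149 genes. At an unadjusted p below 0.05, 7 of 10 enzymes were higher and 1 was lower, against 6.36% and 12.9% of all genes.

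**Figure D1:**
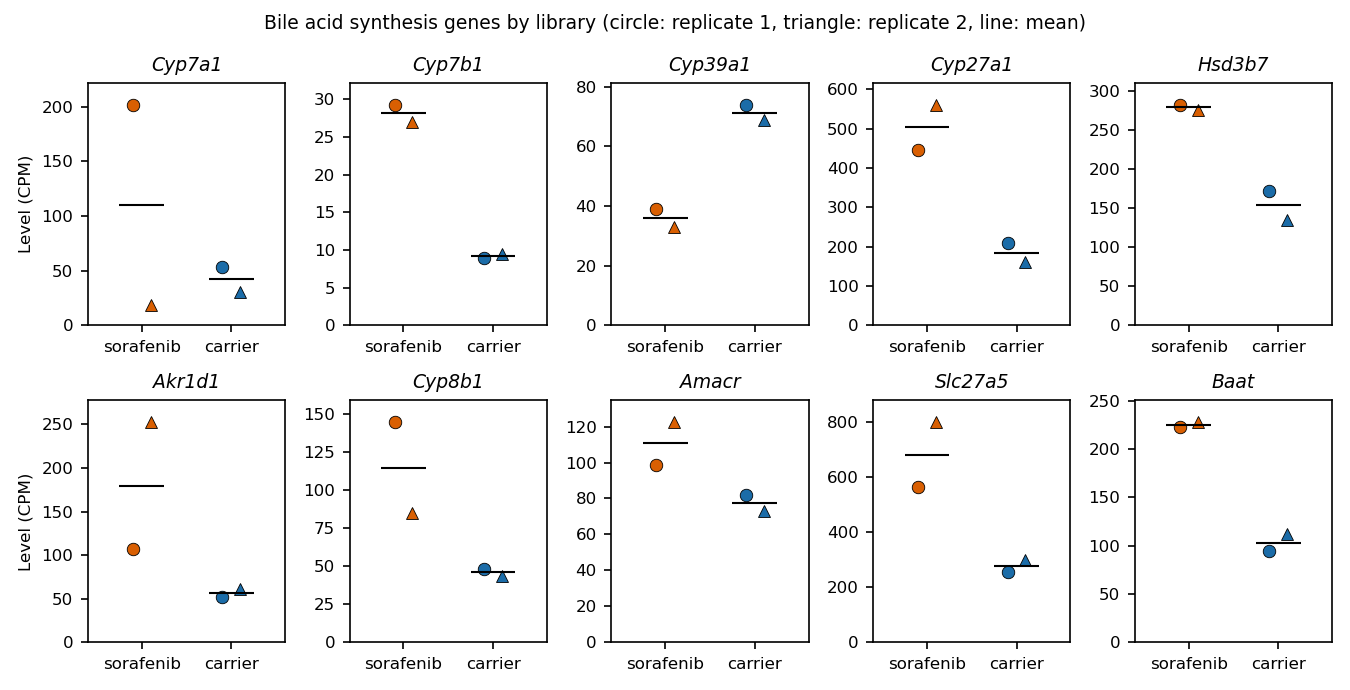
Level of each of the 10 enzyme genes in every library, in CPM on linear axes that start at 0, with the sorafenib libraries left and the carrier libraries right, circles for replicate 1, triangles for replicate 2 and a line for the mean. Both sorafenib points stand above both carrier points in 8 panels and below them for Cyp39a1, while the sorafenib points of Cyp7a1 lie on either side of the carrier points.

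The enzymes that open the pathways did not move together. Cyp7a1 (ENSMUSG00000028240, chromosome 4, 6265612 to 6275633 on GRCm38, minus strand), the rate-limiting enzyme of the classical pathway, had 202 and 18.7 CPM in sorafenib replicates 1 and 2, against 53.4 and 30.6 CPM in carrier replicates 1 and 2. Sorafenib replicate 1 was thus the highest of the 4 libraries and sorafenib replicate 2 the lowest. The values rested on 820 and 98 reads in the sorafenib libraries and on 317 and 162 reads in the carrier libraries. The Wilson 95% intervals, which cover counting error only, ran from 188 to 216 and from 15.3 to 22.8 CPM in sorafenib tumors, and from 47.9 to 59.6 and from 26.2 to 35.6 CPM in carrier tumors. No pair of these intervals overlapped, so the libraries differed by more than counting error within each group. The log2 fold change, sorafenib minus carrier on log2(CPM + 1), was 0.61 with a 95% interval from -1.84 to 3.06 (limma adjusted p = 0.737). It was -1.07 without sorafenib replicate 1 (limma adjusted p = 0.0104) and 2.29 without sorafenib replicate 2 (limma adjusted p = 0.000284), so 1 library decided its direction. In those fits the lone sorafenib library is assumed to vary like the carrier pair.

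Cyp27a1 (ENSMUSG00000026170, chromosome 1, 74713574 to 74737892, plus strand), a mitochondrial sterol hydroxylase that opens the alternative pathway and also acts on the side chain in the classical one, had 446 and 559.8 CPM in sorafenib tumors, against 209 and 159.6 CPM in carrier tumors. The groups did not overlap, and the ratio of the means was 2.73. Cyp7b1 (ENSMUSG00000039519, chromosome 3, 18071950 to 18243338, minus strand), which acts on the ring of oxysterols made by CYP27A1, had 29.3 and 27.1 CPM in sorafenib tumors, against 8.93 and 9.43 CPM in carrier tumors. Its libraries lay close together within each group, and the ratio of the means was 3.07, although it had the fewest reads of the set in the carrier libraries (53 and 50). Cyp39a1 (ENSMUSG00000023963, chromosome 17, 43667425 to 43751431, plus strand), which acts on the oxysterol made by CYP46A1, went the other way. It had 38.8 and 33.0 CPM in sorafenib tumors, against 73.8 and 68.7 CPM in carrier tumors, a ratio of the means of 0.504. Both sorafenib libraries lay below both carrier libraries.

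The ring-modifying enzymes all had higher values in both sorafenib libraries. Hsd3b7 (ENSMUSG00000042289, chromosome 7, 127800604 to 127803802, plus strand), which oxidises the ring alcohol, had 282 and 276 CPM in sorafenib tumors, against 173 and 135 CPM in carrier tumors. Its value is uncertain. In GENCODE M21, 1729 of its 2769 exonic bases are also annotated to 9430064I24Rik on the opposite strand. On the same strand, 1717 are also annotated to Gm49388. Neither 9430064I24Rik nor Gm49388 is among the 39179 genes listed for every library. The strand setting of the counting is not given in the sources used here. Akr1d1 (ENSMUSG00000038641, chromosome 6, 37530173 to 37568815, plus strand), the reductase that gives bile acids their bent ring system, had 107 and 253 CPM in sorafenib tumors, against 51.6 and 61.1 CPM in carrier tumors. The groups did not overlap, but the sorafenib libraries were far apart. Cyp8b1 (ENSMUSG00000050445, chromosome 9, 121914356 to 121916305, minus strand), the enzyme of cholic acid synthesis, whose annotation has 1 exon, had 144 and 84.6 CPM in sorafenib tumors, against 48.2 and 43.6 CPM in carrier tumors. Like Cyp7a1 it was higher in sorafenib replicate 1 than in sorafenib replicate 2, whereas Akr1d1 was higher in replicate 2.

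Promoter sequences are shown for Cyp8b1 and Akr1d1, ring enzymes that differed most between the sorafenib libraries and in opposite order, and for Cyp27a1. The windows are 300 bases from RefSeq (GRCm38.p6), 250 before to 50 after the start of the gene, written along the gene's strand, and RefSeq windows were at hand for 4 of 10 enzymes, these and Hsd3b7. Capitals mark exact matches, on either strand, to any of 6 motifs. The core letters bound by many nuclear receptors were searched as AGGTCA, and the longer site of LRH-1, which contains that core, was searched as CAAGGTCA. The site preferred by HNF4 alpha was searched as CAAAGTCCA and the shorter element of HNF1 was searched as GTTAAT. The box near many start sites was searched as TATAAA, and the E-box that MYC can bind was searched as CACGTG.
Cyp8b1, chr9:121916256-121916555, minus strand: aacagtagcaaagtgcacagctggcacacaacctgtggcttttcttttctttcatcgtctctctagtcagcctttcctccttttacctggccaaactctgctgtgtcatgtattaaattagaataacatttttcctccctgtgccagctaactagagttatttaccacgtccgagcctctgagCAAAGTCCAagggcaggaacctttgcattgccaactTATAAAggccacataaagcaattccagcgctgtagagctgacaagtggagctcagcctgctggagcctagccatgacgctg
Akr1d1, chr6:37529923-37530222, plus strand: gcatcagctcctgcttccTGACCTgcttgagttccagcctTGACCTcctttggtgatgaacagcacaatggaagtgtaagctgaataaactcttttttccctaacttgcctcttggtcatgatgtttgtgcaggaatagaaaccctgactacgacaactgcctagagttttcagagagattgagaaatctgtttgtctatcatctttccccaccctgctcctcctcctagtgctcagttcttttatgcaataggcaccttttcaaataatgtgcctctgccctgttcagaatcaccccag
Cyp27a1, chr1:74713285-74713584, plus strand: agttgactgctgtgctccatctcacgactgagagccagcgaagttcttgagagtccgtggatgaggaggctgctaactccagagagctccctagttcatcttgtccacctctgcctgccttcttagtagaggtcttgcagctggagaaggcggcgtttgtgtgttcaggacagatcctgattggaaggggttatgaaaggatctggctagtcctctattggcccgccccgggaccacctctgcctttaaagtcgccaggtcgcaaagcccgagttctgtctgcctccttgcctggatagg
The Cyp8b1 window holds the HNF4 alpha letters from position -67 and a TATA box from position -31, counted from the start site, motifs found in 0.475% and 13.6% of the 32851 windows of the table. The Akr1d1 window holds the nuclear receptor core on the opposite strand starting at positions -232 and -210, a motif found in 16.3% of windows. The windows of Cyp27a1 and Hsd3b7 hold none of the 6 letter strings. The other shares were 1.56% for LRH-1, 7.1% for HNF1 and 7.15% for the E-box. A match describes the letters and is not a measured binding site.

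The enzymes of the side chain and of conjugation also had higher values in both sorafenib libraries. Slc27a5 (ENSMUSG00000030382, chromosome 7, 12988346 to 12998192, minus strand), which activates bile acids as CoA esters, had 566 and 801 CPM in sorafenib tumors, against 255 and 300.3 CPM in carrier tumors. Baat (ENSMUSG00000039653, chromosome 4, 49489422 to 49506557, minus strand), which joins the activated acid to taurine or glycine, had 223 and 228 CPM in sorafenib tumors, against 94.6 and 112 CPM in carrier tumors. Its sorafenib libraries were almost equal, and the ratio of the means was 2.18. Amacr (ENSMUSG00000022244, chromosome 15, 10981756 to 10996626, plus strand), a racemase that prepares the side chain for peroxisomal shortening, had 98.8 and 122 CPM in sorafenib tumors, against 81.7 and 72.8 CPM in carrier tumors. Its ratio of 1.43 was the smallest of the 8 enzymes whose sorafenib libraries lay above the carrier libraries.

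On log2(CPM + 1), the difference between the groups was largest for Akr1d1 at 1.54 (SE 0.408), followed by 1.52 (SE 0.284) for Cyp7b1, 1.45 (SE 0.245) for Cyp27a1 and 1.28 (SE 0.258) for Slc27a5. It was 1.25 (SE 0.301) for Cyp8b1, 1.12 (SE 0.206) for Baat, 0.87 (SE 0.219) for Hsd3b7 and 0.51 (SE 0.223) for Amacr. That of Cyp39a1 was -0.97 (SE 0.227). Over the 10 enzymes the median was 1.19, against -0.26 over all genes tested. With TMM scaling factors the medians were 1.44 and -0.04, the signs of all 10 enzymes stayed as on CPM, and Cyp39a1 was at -0.72. The 95% interval excluded 0 for 8 enzymes, and for Amacr and Cyp7a1 it included 0. The limma adjusted p was 0.24 for each of those 8, 0.27 for Amacr and 0.737 for Cyp7a1. On CPM, without scaling factors, the sorafenib libraries gave nearly the same difference for Baat (1.11 and 1.14) and Hsd3b7 (0.88 and 0.85). They gave different ones for Akr1d1 (0.92 and 2.15) and Cyp8b1 (1.63 and 0.87). The calls depended on the libraries used and on the tool. DESeq2 on recovered reads called 7 of 10 enzymes higher and 0 lower, against 3.86% and 0.43% of 11619 genes with an adjusted p. Without sorafenib replicate 2 limma called 8 of 10 higher and 0 lower, against 1.76% and 1.27% of genes. Without sorafenib replicate 1 it called 8 higher and 2 lower, against 9.34% and 29.8% of genes. The enzymes that DESeq2 called were Akr1d1, Baat, Cyp27a1, Cyp7b1, Cyp8b1, Hsd3b7 and Slc27a5. These 3 fits share both carrier libraries, so their calls are not independent of each other. The limma fits that left out a sorafenib library hold no estimate of the spread between sorafenib libraries.

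**Figure D2:**
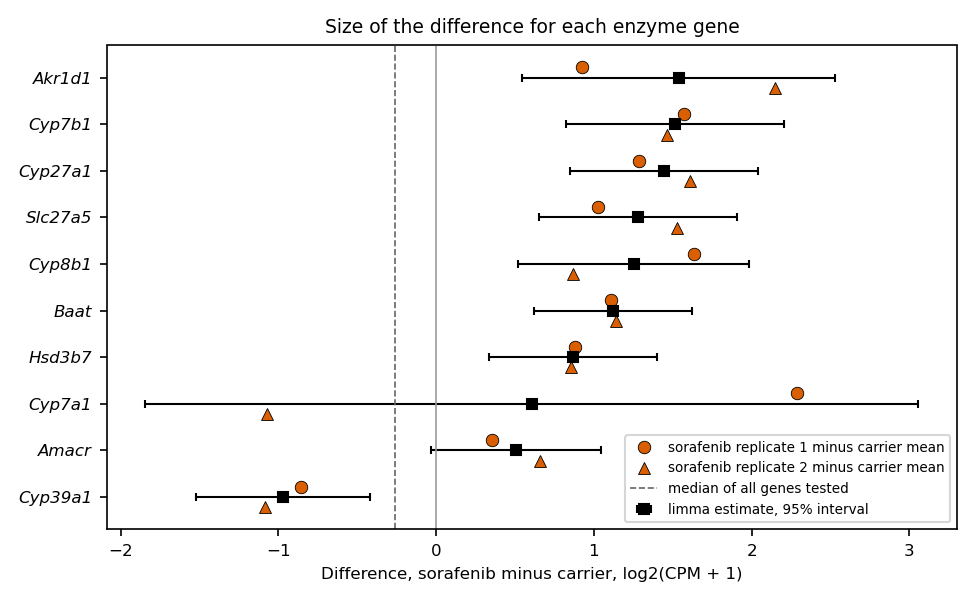
Difference between sorafenib and carrier tumors for each enzyme gene on log2(CPM + 1), with a square and bar for the limma estimate and its 95% interval, a circle and a triangle for sorafenib replicates 1 and 2 minus the carrier mean, and a dashed line for the median of all genes tested at -0.26. The intervals of 7 enzymes lie above 0 and that of Cyp39a1 lies below it, and the library values of Cyp7a1, 2.29 and -1.07, lie on either side of 0.

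Per kilobase of annotated exon, which allows genes to be compared, the order of levels differed most between the groups at Cyp39a1 and Akr1d1. In the sorafenib tumors Slc27a5 had the highest level (280.2 CPM per kb, mean of 2 libraries), followed by Cyp27a1 (231), Baat (116), Hsd3b7 (101), Akr1d1 (62.2), Cyp8b1 (58.7), Amacr (42.4), Cyp7a1 (26.4), Cyp7b1 (13.0) and Cyp39a1 (11.8). In the carrier tumors the order was Slc27a5 (114 CPM per kb), Cyp27a1 (84.8), Hsd3b7 (55.5), Baat (53.2), Amacr (29.7), Cyp8b1 (23.5), Cyp39a1 (23.3), Akr1d1 (19.5), Cyp7a1 (10.1) and Cyp7b1 (4.24). The ranges of neighbours overlapped in the sorafenib tumors for Slc27a5 and Cyp27a1 and for each neighbouring pair from Akr1d1 down to Cyp39a1. In the carrier tumors they overlapped for Hsd3b7 and Baat and for Cyp8b1 and Cyp39a1.

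Within the sterol 7-alpha-hydroxylases, shares of the summed level per kilobase do not depend on library scaling. Cyp39a1 made up 17.1% and 38.9% in sorafenib replicates 1 and 2, against 58.8% and 65.8% in carrier replicates 1 and 2. Cyp7b1 made up 18.1% and 45.0% in the sorafenib libraries, against 10.03% and 12.7% in the carrier libraries. The level of Cyp7b1 was 1.06 and 1.16 times that of Cyp39a1 in the sorafenib libraries, against 0.171 and 0.194 times in the carrier libraries. For the shares of both genes the groups did not overlap. For the ratio they could not, because Cyp7b1 lay above and Cyp39a1 below both carrier libraries in both sorafenib libraries. The shares also move with Cyp7a1, since the level of Cyp7b1 itself was 13.5 and 12.5 CPM per kb in sorafenib replicates 1 and 2. Cyp7a1, with 64.8% and 16.1% in the sorafenib libraries against 31.1% and 21.4% in the carrier libraries, did overlap.

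**Figure D3:**
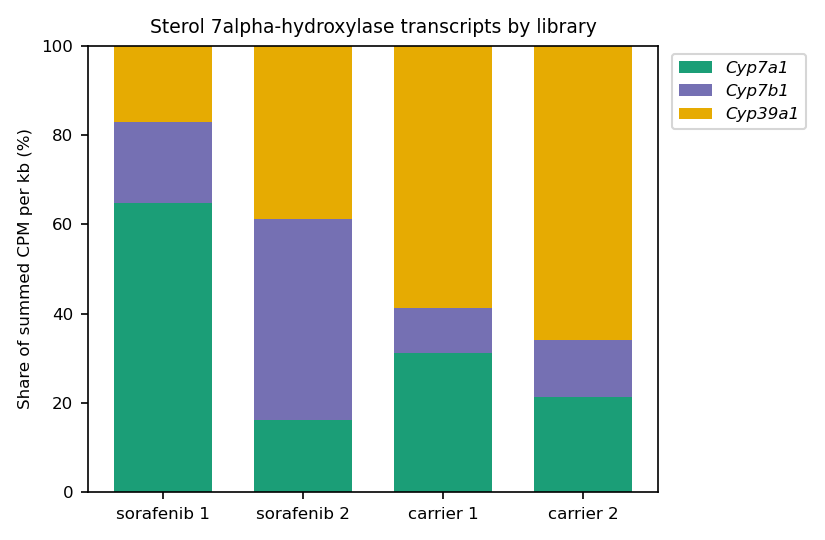
Share of Cyp7a1, Cyp7b1 and Cyp39a1 in their summed level per kilobase of exon, in percent, as stacked bars for each of the 4 libraries. Cyp39a1 fills 17.1% and 38.9% of the sorafenib bars and 58.8% and 65.8% of the carrier bars.

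Of 10 other genes of bile acid synthesis, 9 were tested and 0 passed the limma threshold in either direction. On CPM 8 had a positive and 1 a negative log2 fold change, against 32.2% of all genes positive. With TMM factors 9 were positive, against 47.7% of all genes. Their median on CPM was 0.69, against -0.26 over all genes tested. Cyp46a1, which makes the oxysterol that CYP39A1 uses, was at 4.18 and 12.0 CPM in sorafenib tumors, against 1.69 and 1.13 CPM in carrier tumors, a difference of 1.78 (SE 0.524, limma adjusted p = 0.24). Its values rested on 17 and 63 reads in the sorafenib libraries and on 10 and 6 in the carrier libraries. On these few reads Cyp46a1 lay higher, while Cyp39a1 lay lower. Abcd3, which carries bile acid precursors into peroxisomes, was at 286 and 619 CPM in sorafenib tumors, against 174 and 186 CPM in carrier tumors. Ch25h, the gene not tested, had 0 and 0.191 CPM in sorafenib tumors and 2.36 and 0.377 CPM in carrier tumors, where a count of 0 allows up to 0.738 CPM in the shallowest library.

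The regulators of the pathway were split in direction on CPM, although a larger share was positive than among all genes. Of 14 genes, 13 were tested and 0 passed the limma threshold. On CPM 7 were positive and 6 negative with a median of 0.04, against 32.2% positive and a median of -0.26 over all genes. With TMM factors 10 were positive with a median of 0.29, against 47.7% and -0.04. The groups did not overlap for 5 higher and 3 lower regulators, against 17.5% and 41.3% of all genes. Nr1h4, the bile acid receptor FXR, was at 185 and 217 CPM in sorafenib tumors, against 143 and 135 CPM in carrier tumors, a difference of 0.52 (SE 0.206, limma adjusted p = 0.258). Its target Nr0b2 (SHP), which represses Cyp7a1, was at 55.1 and 42.3 CPM in sorafenib tumors, against 58.3 and 40.2 CPM in carrier tumors, a difference of -0.004 on CPM and 0.24 with TMM factors. Nr1i2, the xenobiotic receptor PXR, was at 154 and 268 CPM in sorafenib tumors, against 110.4 and 99.4 CPM in carrier tumors. Among genes with lower values, Nr5a2, the activator LRH-1, was at 18.7 and 16.8 CPM in sorafenib tumors, against 22.1 and 30.0 CPM in carrier tumors. Prox1, a corepressor of this pathway, was at 78.9 and 62.1 CPM, against 81.1 and 109 CPM. The differences of Nr5a2 and Prox1 were -0.52 and -0.42 on CPM, and -0.27 and -0.17 with TMM factors. Hnf4a, a hepatocyte factor that activates Cyp7a1 and Cyp8b1, was at 697 and 601 CPM in sorafenib tumors, against 642 and 579.7 CPM in carrier tumors, which overlapped.

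Fgf15 had 0 reads in all 4 libraries, which allows up to 0.738 CPM in the shallowest. Its receptor Fgfr4 was at 49.7 and 46.3 CPM in sorafenib tumors, against 38.6 and 44.1 CPM in carrier tumors, and the coreceptor Klb was at 13.8 and 14.9 CPM, against 12.6 and 20.9 CPM. Klb had a difference of -0.18 on CPM and 0.06 with TMM factors. Among 12 transporters of bile acids and biliary lipids, 11 were tested and 0 passed the limma threshold. On CPM 9 were positive and 2 negative with a median of 0.76, against 32.2% of all genes positive. With TMM factors 10 were positive, against 47.7% of all genes. Slco1b2, an uptake carrier, was at 435 and 695 CPM in sorafenib tumors, against 156 and 222 CPM in carrier tumors. Abcg5, a sterol exporter, was at 192 and 254 CPM, against 98.9 and 105 CPM. Slc51b, a subunit of the basolateral exporter, was at 3.20 and 1.33 CPM, against 7.42 and 6.79 CPM. Its values rested on 13 and 7 reads in the sorafenib libraries and on 44 and 36 in the carrier libraries. Slc51a, the transporter gene not tested, had 0 reads in all 4 libraries.

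**Figure D4:**
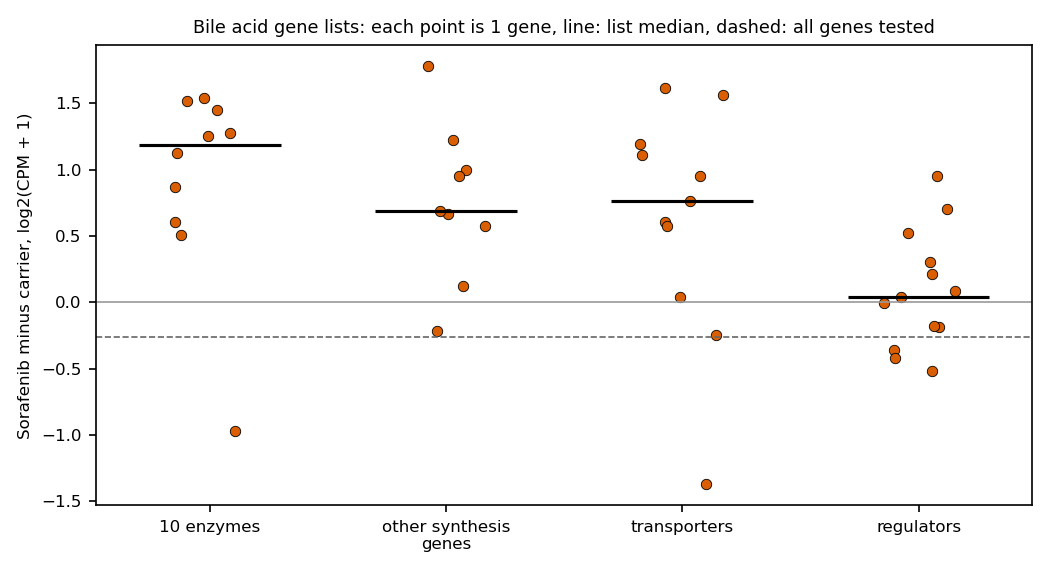
Difference between sorafenib and carrier tumors on log2(CPM + 1) for every tested gene of 4 bile acid gene lists, 1 point per gene, with a line at each list's median and a dashed line at the median of all genes tested. The medians are 1.19 for the 10 enzymes, 0.69 for the other synthesis genes, 0.76 for the transporters and 0.04 for the regulators, against -0.26 for all genes.

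The genes outside these lists whose profile over the 4 libraries lay nearest to the median profile of the enzymes were Cebpb, AW112010, 1600002H07Rik, Il18 and Wfdc21. They were the 5 with the smallest Euclidean distance between centred log2(CPM + 1) values (0.119 to 0.163) among 8196 genes with a mean of at least 10 CPM. Cebpb, a liver transcription factor of the C/EBP family, was at 144 and 151 CPM in sorafenib tumors, against 75.0 and 69.0 CPM in carrier tumors. Among the enzymes, Baat (0.252) and Hsd3b7 (0.3) lay nearest to the median profile, and Cyp39a1 (2.06) and Cyp7a1 (2.48) farthest.

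Markers of other cell types and of the tumor differed between the groups as well. In bulk tissue, fewer cells of a type and less RNA per cell cannot be told apart. The counts below stand beside the 41.3% of all genes tested that lay below both carrier libraries in both sorafenib libraries. The summed level of 6 macrophage markers was 127 and 59.7 CPM in sorafenib tumors, against 224 and 262 CPM in carrier tumors, and all 6 lay lower in both sorafenib libraries. The 6 endothelial markers summed to 115 and 44.8 CPM, against 151 and 182 CPM, with 5 of 6 lower in both, and the 6 stellate cell and matrix markers to 121 and 71.7 CPM, against 245 and 375 CPM, also with 5 of 6. The 6 oncofetal markers, all lower in both, summed to 15210 and 88.2 CPM in sorafenib replicates 1 and 2, against 38169 and 33093 CPM in carrier tumors. These 4 sums were lowest in sorafenib replicate 2. On CPM, without scaling factors, 5 of the 8 higher enzymes had their higher sorafenib value in that library and 3 in sorafenib replicate 1. This split depends on the scaling. TMM factors raise sorafenib replicate 2 relative to replicate 1, and Hsd3b7 and Cyp7b1, of the 3, lay close together on CPM. The split was not counted with TMM factors, so it cannot show whether the enzymes follow the marker sums. What part the cells behind these markers had in the enzyme values was not tested.

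The 10 hepatocyte markers, most of them abundant secreted proteins, summed to 141846 and 119657 CPM in sorafenib tumors, against 166793 and 180142 CPM in carrier tumors. Alb made up most of these sums, at 79607 and 71696 CPM in sorafenib tumors and 91592 and 107514 CPM in carrier tumors. Of the 10, 3 lay above both carrier libraries and 6 below both, against 17.5% and 41.3% of all genes. Their median log2 fold change was -0.45 on CPM and -0.19 with TMM factors, against -0.26 and -0.04 over all genes. The zonated liver genes had higher sums: 7 pericentral markers summed to 2.84 and 3.61 times the carrier mean and 6 periportal markers to 2.07 and 4.44 times in sorafenib replicates 1 and 2. Cholangiocyte markers summed to 521 and 106 CPM in sorafenib tumors, against 472 and 672 CPM, most of it Spp1, with Cftr at 0.246 CPM or less in every library. Lymphocyte markers summed to 10.6 and 8.96 CPM, against 14.0 and 9.62 CPM, and enterocyte markers to 776 and 185 CPM, against 1179 and 873 CPM. Most of the enterocyte sum was Apoa4, at 687 and 130 CPM in sorafenib tumors and 1065 and 764 CPM in carrier tumors, and most of the rest was Fabp2, both of which hepatocytes also express, with Alpi, Lct and Sis at 0 reads in all 4 libraries.

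**Figure D5:**
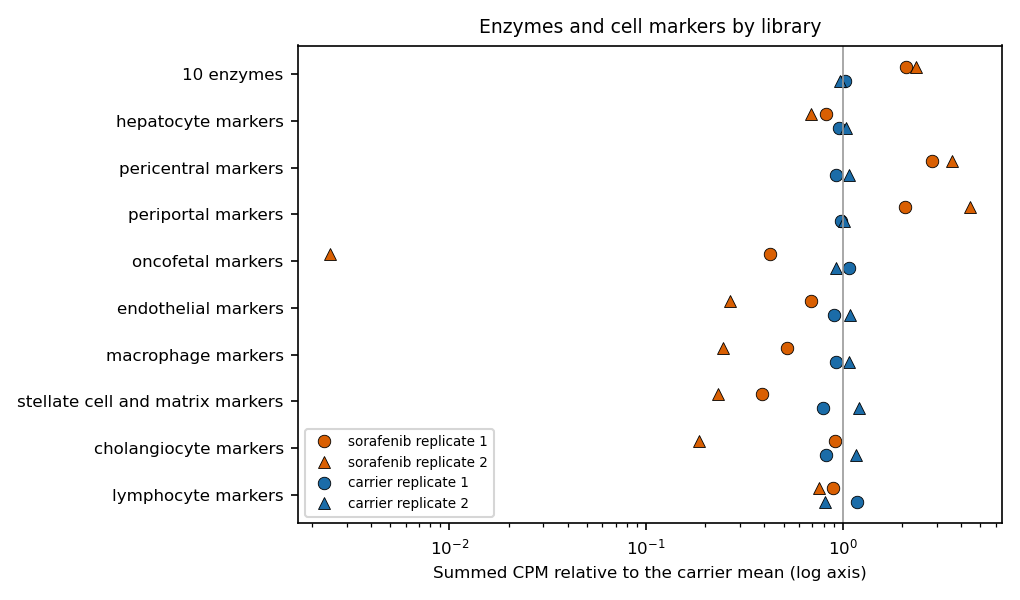
Summed CPM of the 10 enzymes and of 9 marker lists in each library relative to the mean of the carrier libraries, on a log axis, with orange for sorafenib, blue for carrier, circles for replicate 1 and triangles for replicate 2. The enzymes stand at 2.09 and 2.35 in the sorafenib libraries, the pericentral and periportal lists at 2.07 to 4.44, the hepatocyte list at 0.818 and 0.69, and the oncofetal list at 0.427 and 0.00248.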

How the data were processed

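Messenger RNA was measured in 4 libraries, 2 per group (stranded poly(A) kit, single-end reads), per the labels' protocols. The tools named, per the submitters' processing notes, are Subread 1.6.3, STAR 2.6.1c and edgeR 3.22.5 on GRCm38, with no role or order given, and the rule for reads with several matches is not given in the sources used here. The authors deposited 1 table of CPM per library. Dividing by the value of 1 read gave whole reads, within 0.01, for 100% of values above 0.

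limma 3.58.1 (R 4.3.3) with a variance trend was fitted to log2(CPM + 1) of all 13149 genes that reached 1 CPM in 2 or more libraries. p-values are two-sided with Benjamini-Hochberg adjustment over those genes and a threshold of 0.05. Differences are sorafenib minus carrier, and on this scale they understate changes of low genes. edgeR 4.0.16 and DESeq2 1.42.0 on recovered reads, other scaling, pseudocounts, filters, a replicate block and leaving out each library were alternatives. The code of the fit was tested on simulated data. The labels do not say whether replicates are separate mice, so p-values measure only the spread between libraries, which may be technical. Within each group the libraries differed beyond sampling noise (chi-square divided by its degrees of freedom 45.4 for sorafenib and 9.9 for carrier). With 2 against 2 libraries an exact permutation test cannot go below p = 0.333, so none was used.

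The members and lists were chosen with earlier results of these data known. All 10 enzymes were named. From the lists of other synthesis genes, regulators and transporters the rule named up to 2 genes per direction with the smallest p and groups that do not overlap, together with fixed regulators, Alb, Myc and Nras, and the 5 nearest profiles. Markers of zonation, hepatocytes, cholangiocytes and enterocytes named singly, other than Alb, were chosen after their values were seen. Positions and exon lengths came from GENCODE M21 on GRCm38, where 37607 of 39179 identifiers were found. Rhbg, a pericentral marker, had no row under that symbol.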

Additional observations from a re-analysis of the deposited data

How the results depend on the processing

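For the 10 enzymes and 13 alternatives, 105 of 130 single-gene values kept their direction and stayed short of the threshold, 24 passed it in the same direction, and 1 reversed. The reversed value was that of Cyp7a1 without sorafenib replicate 1, at -1.07, against 2.29 without sorafenib replicate 2. limma called 0 genes in all, with 836 higher and 1693 lower at an unadjusted p below 0.05, and edgeR's quasi-likelihood test called 0. DESeq2 called 499 genes and 7 enzymes. Leaving out each library in turn gave 0 to 5149 genes and 0 to 10 enzymes called. The calls came without sorafenib replicate 1 (5149 genes, 10 enzymes) and without sorafenib replicate 2 (398 genes, 8 enzymes), of which 373 genes were shared, and without a carrier library there were 0. With a sorafenib library left out, the spread came from the carrier pair alone, and with a carrier library left out, from the sorafenib pair alone. Fits with a single sorafenib library thus hold no estimate of the spread between sorafenib libraries. The enzymes' median log2 fold change was 1.44 with TMM and 1.38 with upper-quartile factors, 1.54 by edgeR and 1.54 by DESeq2, and 1.00 to 1.21 with each library left out. The all-gene median was -0.26 on CPM and -0.04 with TMM. The count of 9 enzymes without overlap stayed 9 with TMM and upper-quartile factors and with either carrier library left out. For those settings the share of all genes was not counted, so the unchanged count cannot be read as particular to the enzymes. The count was 10 with either sorafenib library left out, where a single library is set against 2 and groups separate more easily. With the replicate block limma called 0 genes and 0 enzymes and the enzymes' median stayed 1.19. Deviations of same-numbered libraries correlated at 0.15 across genes, and with 2 pairs the numbers were not taken to pair libraries. Reads were fewest for Cyp7b1 in 3 of 4 libraries, at 50 to 119, and for Cyp7a1 in sorafenib replicate 2, at 98.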

Other observations

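Markers of both sides of the liver lobule had higher values in the sorafenib tumors, with 6 of 7 pericentral and 6 of 6 periportal markers above both carrier libraries, against 17.5% of all genes tested. The exception was Lgr5, a Wnt pathway receptor, at 4.43 and 1.91 CPM in sorafenib tumors, against 3.20 and 3.58 CPM in carrier tumors. Cyp2e1, a pericentral cytochrome P450, was at 3827 and 4741 CPM in sorafenib tumors, against 1002 and 1573 CPM in carrier tumors. Cyp2f2, a periportal cytochrome P450, was at 326 and 924 CPM, against 125 and 147 CPM, and Pck1, the gluconeogenic enzyme, at 2282 and 5652 CPM, against 971 and 1105 CPM. The secreted proteins among the hepatocyte markers included values in both directions. Ahsg, fetuin-A, was at 17259 and 10016 CPM in sorafenib tumors, against 26953 and 26727 CPM in carrier tumors, whereas Ttr, transthyretin, was at 7905 and 9980 CPM, against 4978 and 5965 CPM. None of these passed the limma threshold.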
